A study of Mus musculus with 7 samples.

Results

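The regions described here are the 12041 bins of 500 bp on mouse chromosomes 1 to 19 that held a mean of 20 to 100 raw reads per library, called members below. They make up 0.244% of the 4944695 autosomal bins, out of 5451548 bins in all. The rule used the mean raw count over all 7 libraries, so that the height of a member is a matter of its selection and not a finding. The next lower tier, with a mean of 10 to under 20 reads, held 214346 autosomal bins, and 249 autosomal bins lay above 100.

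Hippocampal genomic DNA of C57BL/6 mice kept without stress was enriched for 5-hydroxymethylcytosine (5hmC) by antibody and sequenced. Tet2 CKO, the conditional knockout of Tet2, had 4 libraries, replicates 1 to 4. Wild-type mice (WT) had 3, replicates 1 to 3. Age, sex and the driver of the knockout are not given in the sources used here, nor whether each library is a separate animal, so the spread behind each p-value is that between libraries and may be technical. No input libraries were analysed here, so levels are not set against unenriched DNA.

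5hmC is made when TET dioxygenases, among them TET2, oxidise 5-methylcytosine. The mark is abundant in neurons, where it is found mostly along gene bodies and at regulatory elements. Antibody enrichment gives a regional read density and does not resolve single cytosines.

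Levels are given as CPM, a bin's reads scaled to the library's autosomal total, which was taken over bins with a mean of at most 100 reads. That total was 12551442, 11146988, 12062783 and 13946166 reads in Tet2 CKO replicates 1, 2, 3 and 4, and 28885986, 12191637 and 14433675 reads in WT replicates 1, 2 and 3. WT replicate 1 held 27.5% of these reads, and each other library between 10.6% and 13.7%, so the raw mean that chose the members gave WT replicate 1 the most weight. The autosomal total kept 48.0%, 28.4%, 24.4% and 48.1% of all reads in Tet2 CKO replicates 1 to 4 and 68.8%, 44.3% and 48.8% in WT replicates 1 to 3, which bears on every CPM value. WT replicate 1 stood at one end of the profiles described below, with Tet2 CKO replicates 2 and 3 at the other, so results that rest on these 3 libraries are also given without them. Even counts were in excess in every library: autosomal bins with 2 reads outnumbered bins with 1 read by between 3.40 and 6.66 times. No counting interval is given, since it would take reads as independent.

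The members held a larger part of Tet2 CKO replicates 2 and 3 than of any other library. They took 1.74%, 3.50%, 3.59% and 1.67% of the autosomal total in Tet2 CKO replicates 1, 2, 3 and 4, and 1.60%, 1.86% and 1.77% in WT replicates 1, 2 and 3. The share averaged 2.63% ± 1.06 in Tet2 CKO (SD, n = 4) and 1.74% ± 0.135 in WT (SD, n = 3). The groups overlapped, since Tet2 CKO replicates 1 and 4 lay within the WT range. Between libraries of the same replicate number, Tet2 CKO minus WT was 0.149, 1.64 and 1.82 percentage points for numbers 1, 2 and 3. In bulk tissue, fewer cells carrying a signal and less signal per cell cannot be told apart. With Tet2 CKO replicates 2 and 3 and WT replicate 1 left out, the difference in share, Tet2 CKO minus WT, was -0.107 percentage points, where with all libraries it was 0.885 points. Without Tet2 CKO replicate 3 alone it was 0.563 points.

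The median member held 16, 32, 36 and 17 reads in Tet2 CKO replicates 1 to 4 and 24, 17 and 18 reads in WT replicates 1 to 3. On the CPM scale the medians were 1.27, 2.87, 2.98 and 1.22 CPM in the Tet2 CKO libraries and 0.831, 1.39 and 1.25 CPM in the WT libraries. The quartiles ran from 1.08 to 4.13 CPM in Tet2 CKO replicate 2 and from 1.08 to 4.23 CPM in Tet2 CKO replicate 3, a wider spread than the 0.956 to 1.75 CPM of Tet2 CKO replicate 1. A member was at 0 reads in 1106 cases in Tet2 CKO replicate 2 and in 599 cases in Tet2 CKO replicate 3, against at most 21 cases in any other library. In all, 9599 members (79.7%) lay above the mean autosomal bin in each of the 7 libraries. In the 4 libraries other than Tet2 CKO replicates 2 and 3 and WT replicate 1, that held for 11702 members (97.2%).

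Choosing bins by the same rule over 6 libraries and reading the library left out gave levels that the choice had not used. Such bins stood above the mean autosomal bin of the unused library in 97.1%, 68.7%, 73.3% and 97.5% of cases for Tet2 CKO replicates 1, 2, 3 and 4. For WT replicates 1, 2 and 3 the figures were 92.7%, 97.5% and 98.6%. Over all autosomal bins of these libraries, between 21.3% and 36.4% lay above the mean. Tet2 CKO replicates 2 and 3 had the lowest of these figures, and they were also at 0 reads in 21.4% and 14.5% of such bins, against at most 0.642% in any other library. In the unused library the median such bin held 4.88 times the autosomal mean in Tet2 CKO replicate 2, 4.51 times in Tet2 CKO replicate 3 and 2.40 times in WT replicate 1, against 4.96 to 5.68 times in the others. By the mean over such bins the order was another. Tet2 CKO replicates 2 and 3 stood at 9.77 and 9.81 times, WT replicate 1 at 3.74 times and the others at 5.84 to 6.48 times.

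Across members, Tet2 CKO replicates 2 and 3 and WT replicate 1 had opposed patterns. On log2(CPM + 0.5), Pearson's r between Tet2 CKO replicates 2 and 3 was 0.895, and both correlated negatively with WT replicate 1 at r = -0.715 and -0.717. Tet2 CKO replicates 1 and 4 and WT replicates 2 and 3 correlated with one another at r between 0.299 and 0.363 and with Tet2 CKO replicates 2 and 3 at r between -0.0340 and 0.0380. These are descriptions over 12041 members, which were chosen on the sum of the same reads.

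The members were therefore sorted by the library in which their CPM was highest, a sorting made after the values were seen and used for description only. Most of them, 7763 (64.5%), were highest in Tet2 CKO replicate 2 or 3. A further 2291 were highest in WT replicate 1, and 1987 (16.5%) in one of the other 4 libraries. By CPM, 129 members (1.07%) had more than 50% of their summed CPM in 1 library, of which 105 were carried by WT replicate 1, 14 by Tet2 CKO replicate 3, 7 by WT replicate 3 and 3 by Tet2 CKO replicate 2. By raw reads the number was 1320. Tet2 CKO replicates 2 and 3 together held more than 50% of the summed CPM in 6091 members (50.6%). When members were chosen by mean CPM in place of raw reads, 9382 of the 12041 bins were shared and 84.9% were highest in Tet2 CKO replicate 2 or 3. When they were chosen over the 4 similar libraries alone, 5116 bins passed, of which 4090 were members (34.0% of the members and 79.9% of the 5116), and 39.9% were highest in Tet2 CKO replicate 2 or 3.

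The 4 similar libraries did not show the opposition. In members highest in Tet2 CKO replicate 2 or 3, the medians were 1.27, 3.77, 3.90 and 1.15 CPM in Tet2 CKO replicates 1 to 4 and 0.554, 1.31 and 1.25 CPM in WT replicates 1 to 3. In members highest in WT replicate 1 they were 1.27, 0.179, 0.332 and 1.22 CPM in Tet2 CKO replicates 1 to 4 and 2.94, 1.39 and 1.18 CPM in WT replicates 1 to 3. Tet2 CKO replicates 1 and 4 and WT replicates 2 and 3 thus had medians between 1.15 and 1.39 CPM in both sets, while the other 3 stood high in one set and low in the other. The sorting itself fixed which libraries stood high in each set.

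**Figure D1:**
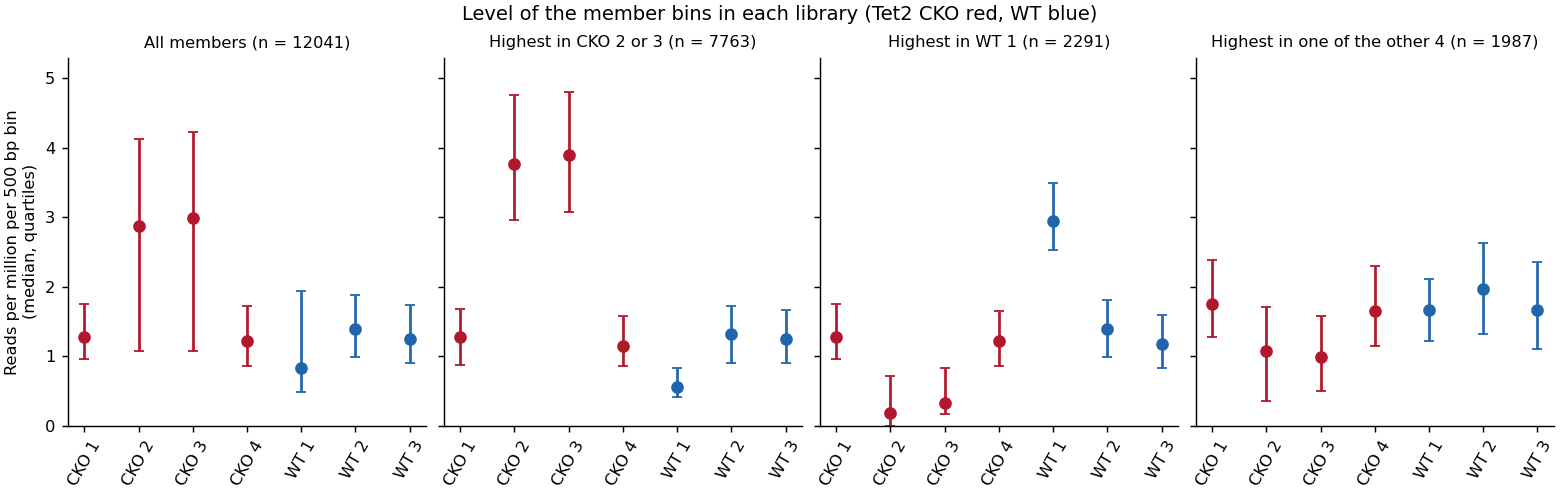
Level of the member bins in CPM, for Tet2 CKO libraries (CKO, red) and WT libraries (blue), over all members and over 3 sets sorted by the library with the highest value. Points are medians over bins and bars run from the lower to the upper quartile. Tet2 CKO replicates 2 and 3 and WT replicate 1 change places between the panels for Tet2 CKO replicate 2 or 3 and for WT replicate 1, and the other 4 libraries do not.

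Bins beside a member that were not members themselves also lay above the mean autosomal bin. The rule left only those with a mean under 20 reads, so it capped their level, and they are no independent check. Non-member bins at 0.5 to 2 kb from a member held 2.07, 3.66, 3.81 and 1.98 times the autosomal mean in Tet2 CKO replicates 1 to 4, and 1.99, 2.09 and 2.03 times in WT replicates 1 to 3. The group means were 2.88 ± 0.991 in Tet2 CKO (SD, n = 4) and 2.04 ± 0.0470 in WT (SD, n = 3). Tet2 CKO replicates 2 and 3 lay above all other libraries, and Tet2 CKO replicate 4 lay below every WT library. The difference between the group means, 0.843, was 0.532 without Tet2 CKO replicate 3 and -0.0340 without Tet2 CKO replicates 2 and 3 and WT replicate 1. At 2.5 to 10 kb the means were 1.37 ± 0.0760 in Tet2 CKO and 1.34 ± 0.0808 in WT.

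The shape of the surroundings differed between the sets. Around members highest in Tet2 CKO replicate 2 or 3, Tet2 CKO replicate 2 held 20.2 times its autosomal mean in the member, 4.13 times at 2 kb, 3.09 times at 3 kb, 1.60 times at 5 kb and 1.26 times at 10 kb. Tet2 CKO replicate 1 went through the same distances at 6.64, 1.68, 1.42, 1.06 and 0.957 times. WT replicate 1, at 3.33 times in these members, was at 1.06 times by 2 kb and at 0.778 times by 10 kb. These members thus sat on raised stretches of several kb in Tet2 CKO replicates 2 and 3, and by 10 kb the level in Tet2 CKO replicate 1 and WT replicate 1 was below their means.

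Around members highest in WT replicate 1 the level stayed raised over a longer distance. WT replicate 1 held 15.7 times its autosomal mean in the member, 3.40 times at 2 kb, 2.84 times at 10 kb and 2.28 times at 50 kb. Tet2 CKO replicates 1 and 4 were still at 1.62 and 1.54 times and WT replicates 2 and 3 at 1.57 and 1.49 times at 50 kb, while Tet2 CKO replicates 2 and 3 were at 0.835 and 0.870 times. Around members highest in one of the other 4 libraries, the level at 50 kb was 1.51, 0.974, 0.989 and 1.498 times the mean in Tet2 CKO replicates 1 to 4 and 1.99, 1.54 and 1.504 times in WT replicates 1 to 3.

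**Figure D2:**
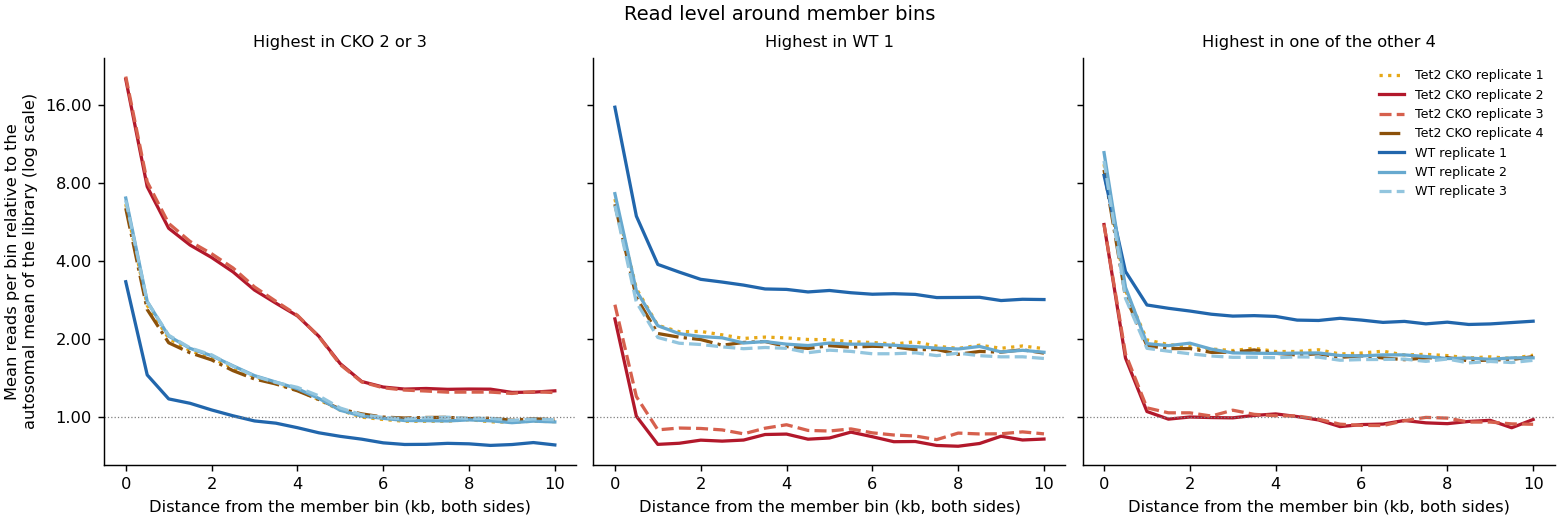
Mean reads per 500 bp bin relative to the library's own autosomal mean (log scale) against the distance from a member bin, for the 7 libraries and the 3 sets of members; at distances above 0 other members are left out. Tet2 CKO replicates 2 and 3 fall over about 5 kb in the first panel, whereas in the second panel WT replicate 1 is still at 2.84 times its mean at 10 kb.

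Members were clustered over short distances, although most stood alone. Of the bins directly beside a member, 17.2% were members themselves, against 0.244% of all autosomal bins. The share was 6.21% at 1 kb, 5.03% at 2 kb, 2.41% at 10 kb and 0.549% at 100 kb. In all, 3712 members (30.8%) touched another member, and the 12041 members formed 9965 separate runs, of which 8329 were single bins and 1423 were pairs of bins. In the tier with a mean of 10 to under 20 reads, which holds many more bins, 53.6% touched one of their own kind.

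Few members were spikes over an empty surround. Over all members, those in runs included, both neighbouring bins had a mean under 5 reads for 241 (2.00%). Both had a mean of at least 10 for 4553 members (37.8%). The figure for both neighbours at 10 or more was 42.0% in members highest in Tet2 CKO replicate 2 or 3, 35.7% in members highest in WT replicate 1 and 23.9% in the rest. The share touching another member was 22.1% of the 7783 members with a mean of 20 to under 25 reads and 78.0% of the 100 members at 75 or more.

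Nearness to the 249 highest bins also grew with height. Within 10 kb of an autosomal bin above 100 reads lay 351 members (2.92%), against 0.0537% of the autosomal bins of at most 100 reads. Among members with a mean of 20 to under 25 reads, 0.501% were that close, and among those at 75 or more, 47.0% were. Of the 491 members in runs of 4 bins or more, 205 (41.8%) were within 10 kb of such a bin.

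The longest run was 23 bins at chromosome 11, 3027001 to 3038500, and it lay 0.5 kb from a bin above 100. Its bins averaged 3.17, 2.31, 1.54 and 3.83 CPM in Tet2 CKO replicates 1 to 4 and 3.98, 2.93 and 3.43 CPM in WT replicates 1 to 3. The second longest was 18 bins at chromosome 6, 47610501 to 47619500, with 2.97, 2.13, 2.28 and 2.60 CPM in Tet2 CKO replicates 1 to 4 and 5.33, 3.21 and 2.92 CPM in WT replicates 1 to 3. In both runs Tet2 CKO replicates 2 and 3 were the lowest libraries and WT replicate 1 the highest. The next 2 runs were picked after their values were seen and had another order. The run of 16 bins at chromosome 11, 3055001 to 3063000, also 0.5 kb from a bin above 100, averaged 2.91, 4.04, 3.49 and 3.68 CPM in Tet2 CKO replicates 1 to 4 and 2.30, 3.63 and 3.77 CPM in WT replicates 1 to 3. The fourth longest was 13 bins at chromosome 1, 85330501 to 85337000. It averaged 2.10, 6.97, 7.19 and 2.13 CPM in Tet2 CKO replicates 1 to 4 and 1.09, 1.99 and 2.00 CPM in WT replicates 1 to 3, and it was 60708 kb from the nearest bin above 100.

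Members were spread over all 19 autosomes, with a few dense places. Of 2482 windows of 1 Mb, 2277 held at least 1 member and the median window held 4. The fullest window was chromosome 8, 19000001 to 20000000, with 130 members in 62 runs and 8 bins above 100 reads. The next were chromosome 11, 3000001 to 4000000, with 128 members and 28 bins above 100, and chromosome 6, 47000001 to 48000000, with 109 members and 23 bins above 100. These 3 windows held 367 members (3.05%).

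The 3 fullest windows differed in the libraries that carried them. In the chromosome 8 window 90 of 130 members were highest in Tet2 CKO replicate 2 or 3, and the members averaged 2.13, 3.98, 4.30 and 2.19 CPM in Tet2 CKO replicates 1 to 4 and 1.43, 2.18 and 2.28 CPM in WT replicates 1 to 3. In the chromosome 6 window 67 of 109 were highest in WT replicate 1, with 2.88, 2.25, 2.26 and 2.74 CPM in Tet2 CKO replicates 1 to 4 and 4.82, 3.18 and 3.03 CPM in WT replicates 1 to 3. In the chromosome 11 window 72 of 128 were highest in one of the other 4 libraries, and the averages were 3.29, 3.60, 3.22 and 4.04 CPM in Tet2 CKO replicates 1 to 4 and 2.62, 3.48 and 3.53 CPM in WT replicates 1 to 3.

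By chromosome, the density of members ran from 3.84 per Mb on chromosome 13 to 6.58 per Mb on chromosome 8. Chromosomes 11, 17 and 15 followed chromosome 8, at 6.02, 5.63 and 5.58 per Mb. Without the 3 fullest windows chromosome 8 had 5.59 and chromosome 11 had 4.97 members per Mb, and chromosome 17, at 5.63, was the densest. Among bins chosen over the 4 similar libraries alone, chromosome 11 was the densest and chromosome 13 the thinnest. With members chosen by mean CPM, or with a mean of at least 30 reads, chromosome 8 was the densest and chromosome 19 the thinnest.

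The library that carried a member varied between chromosomes. Members highest in Tet2 CKO replicate 2 or 3 made up 79.4% of those on chromosomes 3 and 14, and 44.1% on chromosome 11. The share highest in WT replicate 1 was lowest on chromosome 3, at 10.1%, and highest on chromosome 17, at 28.7%. Chromosome 11 held 4.87% and 4.73% of the member reads of Tet2 CKO replicates 2 and 3, against 7.54% and 8.07% in Tet2 CKO replicates 1 and 4 and between 7.32% and 7.98% in the WT libraries. Chromosome 3 showed the opposite order, with 6.65% and 6.73% in Tet2 CKO replicates 2 and 3, 5.33% and 5.19% in Tet2 CKO replicates 1 and 4, and 3.98%, 5.12% and 5.14% in WT replicates 1, 2 and 3.

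**Figure D3:**
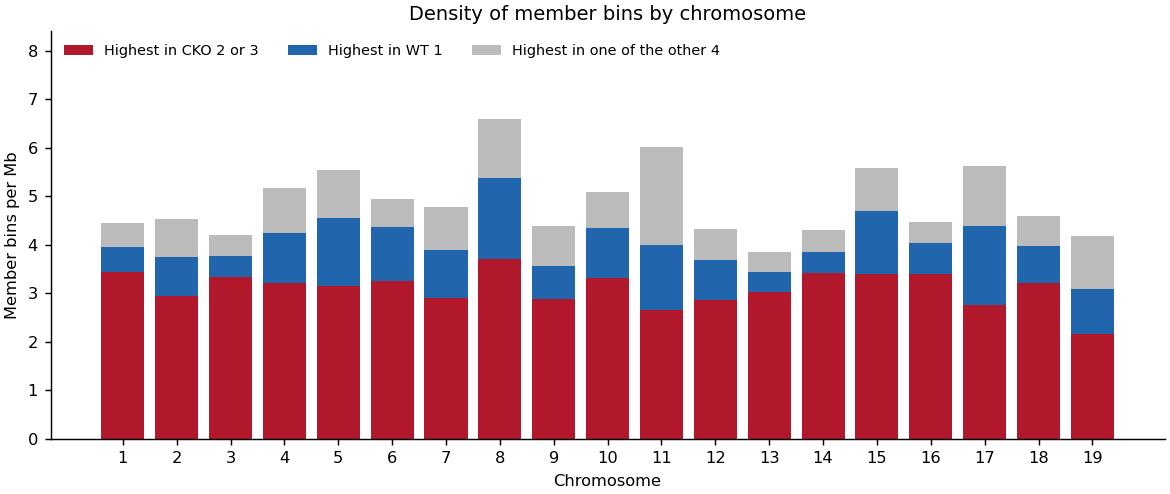
Member bins per Mb of each autosome, stacked by the library in which a member was highest (CKO, Tet2 CKO). Chromosome 8 has the highest total, at 6.58 per Mb, and chromosome 13 the lowest, at 3.84 per Mb; the part highest in WT replicate 1 is largest on chromosome 8.

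Place along the chromosome went with the carrying library as well. With each autosome cut into 10 equal parts from its first covered bin, the first part, next to the centromere, held 11.1% of the members and the last 12.2%. In the first part 72.3% of members were highest in Tet2 CKO replicate 2 or 3 and 11.1% in WT replicate 1, while in the last part the shares were 36.7% and 37.4%. Of the 351 members within 10 kb of a bin above 100 reads, 133 lay in the first part, 74 in the second, 107 in the fourth and 3 in the last.

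Whether single members differed in 5hmC signal between Tet2 CKO and WT was tested with edgeR's quasi-likelihood test over all 232257 bins with a mean of at least 10 reads. Of the 12041 members, 0 passed an adjusted p of 0.05 (Benjamini-Hochberg), and 0.0% of all tested bins did in either direction. The lowest adjusted p of a member was 0.420. At an unadjusted p under 0.05 there were 1759 members higher in Tet2 CKO (14.6%, against 9.68% of all tested bins) and 538 lower (4.47%, against 2.13%). Every Tet2 CKO library lay above every WT library in 972 members (8.07%, against 7.08% of all tested bins), and every Tet2 CKO library below in 538 (4.47%, against 4.25%).

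The balance of these counts depended on the scaling and on single libraries. The median log2 fold change of the members was 0.89, against 0.57 over all tested bins. With edgeR's TMM factors the 2 medians were -0.04 and -0.27. Unadjusted p then fell under 0.05 for 112 members higher (0.930%, against 1.31% of all tested bins) and 400 lower (3.32%, against 4.33%). Relative to all tested bins the members' median thus lay 0.32 higher with autosomal totals and 0.22 higher with TMM factors, while the direction of their own median turned. This gap depended on the bins tested. It was 1.03 with no count filter, 0.83 from a mean of 5 reads and -0.036 from 20, where 12041 of 13085 tested bins were members. It was 0.037 without Tet2 CKO replicates 2 and 3, and -0.041 without WT replicate 1 as well. The count of members higher at an unadjusted p under 0.05 also moved by more than 1.5 times with any single library left out. Without Tet2 CKO replicate 1 there were 2876 higher (against 15.5% of all tested bins) and 981 lower (against 4.86%). Without Tet2 CKO replicate 2 there were 716 higher (against 3.52%) and 263 lower (against 1.64%). Without Tet2 CKO replicate 3 there were 598 higher (against 3.05%) and 271 lower (against 1.71%). The counts without Tet2 CKO replicate 4 were 3073 higher (against 16.2%) and 915 lower (against 4.34%). With WT replicate 2 left out they were 934 higher (against 6.66%) and 397 lower (against 1.49%). With WT replicate 3 left out they were 1001 higher (against 7.34%) and 454 lower (against 1.81%). Without WT replicate 1 the edgeR fit gave 415 members higher (against 3.02%) and 178 lower (against 0.425%) at an unadjusted p under 0.05. Without Tet2 CKO replicates 2 and 3 it gave 79 higher (against 0.975%) and 244 lower (against 1.95%), and the members' median was 0.03, against -0.01 over all tested bins.

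With only Tet2 CKO replicates 1 and 4 and WT replicates 2 and 3 in the fit, the members' median log2 fold change was -0.08, against -0.04 over all tested bins, and again 0 members passed the adjusted threshold in edgeR. At an unadjusted p under 0.05 that fit gave 122 members higher (1.01%, against 1.64% of all tested bins) and 279 lower (2.32%, against 2.03%). In that fit the medians were -0.10 for members highest in Tet2 CKO replicate 2 or 3 and -0.00082 for those highest in WT replicate 1, where the fit of all 7 libraries had 1.29 and -1.14. The sorting by highest library largely sets the medians of the 7-library fit, and by definition none of the 4 similar libraries is highest in either set. The contrast is therefore a description.

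**Figure D4:**
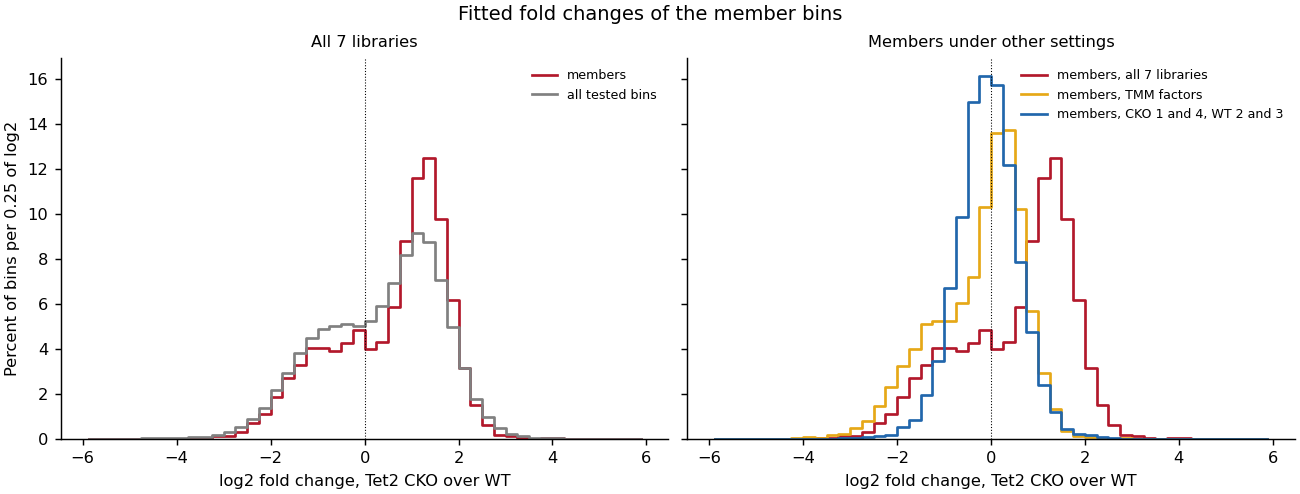
Percent of bins per step of 0.25 in fitted log2 fold change, Tet2 CKO (CKO) over WT. On the left are the members and all tested bins with all 7 libraries, and on the right the members with all 7 libraries, with TMM factors and with the 4 similar libraries only. The members' medians are 0.89, -0.04 and -0.08 in these 3 fits.

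Calls appeared in 2 other fits. With the replicate number as a block over replicates 1 to 3 of both groups, edgeR called 3181 members higher (26.4%, against 7.20% of all tested bins) and 882 lower (7.32%, against 1.17%) in Tet2 CKO, the smallest adjusted p being 0.0190. Of those called higher, 3177 were highest in Tet2 CKO replicate 2 or 3, and of those called lower 662 were highest in WT replicate 1. Both Tet2 CKO libraries that stand apart are in that fit, and Tet2 CKO replicate 4 is not. DESeq2's Wald test called 11 members higher (0.0914% of all 12041 members, against 0.0994% of the 16104 bins to which it gave an adjusted p) and 2 lower (0.0166%, against 0.0124%). It gave an adjusted p to 9846 members, and the lowest was 0.0335.

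The members with the smallest unadjusted p are given next as examples. They were picked by p from these libraries, and each had an adjusted p of 0.420 in edgeR. Each also reached the lower bound of 20 reads through the group where it was high. The gap between the groups in these bins thus follows from the choice and is a description. On chromosome 4 the member at 121169501 to 121170000, one of those higher in Tet2 CKO, held 10, 63, 39 and 20 reads in Tet2 CKO replicates 1 to 4 and 3, 2 and 3 reads in WT replicates 1 to 3. It averaged 2.78 ± 2.18 CPM in Tet2 CKO (SD, n = 4) and 0.159 ± 0.0522 CPM in WT (SD, n = 3). The fitted log2 fold change was 4.11 (SE 0.97). Chromosome 5, 59325001 to 59325500, held 14, 52, 69 and 13 reads in Tet2 CKO replicates 1 to 4 and 3, 1 and 6 reads in WT replicates 1 to 3, with a log2 fold change of 3.94 (SE 0.97). In both bins the groups did not overlap, and Tet2 CKO replicates 2 and 3 were the highest libraries.

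Also on chromosome 5, 56645501 to 56646000 followed, with 8, 64, 58 and 10 reads in Tet2 CKO replicates 1 to 4 and 8, 2 and 0 reads in WT replicates 1 to 3 (log2 fold change 4.15, SE 1.03). Tet2 CKO replicate 1 and WT replicate 1 held the same 8 reads there, and the groups were apart only after scaling to the totals. Chromosome 18, 56378001 to 56378500, held 8, 14, 152 and 15 reads in Tet2 CKO replicates 1 to 4 and 6, 2 and 6 reads in WT replicates 1 to 3 (log2 fold change 3.86, SE 1.01). In the chromosome 18 bin Tet2 CKO replicate 3 alone carried 77.0% of the summed CPM. In the fit of the 4 similar libraries the log2 fold changes of these 4 bins were 2.52, 1.96, 2.99 and 1.51, in the order given. Those libraries were part of the fit that picked the bins, so these values are no separate check.

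Among members lower in Tet2 CKO, chromosome 12, 3367001 to 3367500, held 4, 0, 0 and 2 reads in Tet2 CKO replicates 1 to 4 and 112, 36 and 22 reads in WT replicates 1 to 3. It averaged 0.116 ± 0.151 CPM in Tet2 CKO (SD, n = 4) and 2.78 ± 1.19 CPM in WT (SD, n = 3). Its log2 fold change came to -4.46 (SE 0.96). Chromosome 19, 16446501 to 16447000, held 2, 0, 0 and 4 reads in Tet2 CKO replicates 1 to 4 and 101, 24 and 22 reads in WT replicates 1 to 3 (log2 fold change -4.23, SE 0.97). All WT libraries were above all Tet2 CKO libraries in both bins, and WT replicate 1 was the highest.

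Chromosome 17, 87524501 to 87525000, held 4, 0, 2 and 8 reads in Tet2 CKO replicates 1 to 4 and 101, 45 and 34 reads in WT replicates 1 to 3 (log2 fold change -3.51, SE 0.87). The bin at chromosome 7, 52949501 to 52950000, held 2, 2, 0 and 6 reads in Tet2 CKO replicates 1 to 4 and 79, 35 and 24 reads in WT replicates 1 to 3 (log2 fold change -3.57, SE 0.90). The 4 lower bins had log2 fold changes between -3.24 and -2.72 in the fit of the 4 similar libraries, which had also helped to pick them. With the replicate block all 8 bins passed, at an adjusted p of 0.0190 in edgeR, and over all alternatives their adjusted p reached 1.0.

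The 3 tallest members were none of these 8. By mean CPM the highest was the bin at chromosome 15, 17685001 to 17685500, with 64, 224, 180 and 63 reads in Tet2 CKO replicates 1 to 4 and 46, 52 and 58 reads in WT replicates 1 to 3. Chromosome 3, 148715501 to 148716000, held 43, 142, 206 and 98 reads in Tet2 CKO replicates 1 to 4 and 36, 90 and 78 reads in WT replicates 1 to 3. The bin at chromosome 8, 19923001 to 19923500, held 50, 173, 213 and 74 reads in Tet2 CKO replicates 1 to 4 and 62, 58 and 67 reads in WT replicates 1 to 3. Tet2 CKO replicates 2 and 3 were the highest libraries in all 3, and the other libraries were high in them too.

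The most even members lay at the low end of the range. The bin at chromosome 4, 102457001 to 102457500, held 28, 24, 24 and 24 reads in Tet2 CKO replicates 1 to 4 and 50, 22 and 26 reads in WT replicates 1 to 3, a coefficient of variation of 0.108 over CPM. Chromosome 2, 91348001 to 91348500, held 16, 18, 20 and 22 reads in Tet2 CKO replicates 1 to 4 and 44, 19 and 18 reads in WT replicates 1 to 3. The bin at chromosome 11, 78867501 to 78868000, held 18, 18, 14 and 18 reads in Tet2 CKO replicates 1 to 4 and 44, 16 and 22 reads in WT replicates 1 to 3. The larger counts of WT replicate 1 match its larger total, and each of these bins stood alone, with no member beside it.

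Members carried by WT replicate 1 were scattered. The 105 members with more than 50% of their summed CPM in it lay on all 19 autosomes, with 12 on chromosome 5 and 10 on chromosome 8 at most. The highest share, 72.6%, was in the bin at chromosome 1, 130213501 to 130214000, with 12, 0, 2 and 6 reads in Tet2 CKO replicates 1 to 4 and 166, 5 and 3 reads in WT replicates 1 to 3. The bin before it, 130213001 to 130213500, held 6, 0, 0 and 11 reads in Tet2 CKO replicates 1 to 4 and 193, 8 and 9 reads in WT replicates 1 to 3. Both belonged to a run of 4 members. For Tet2 CKO replicate 3, the bin at chromosome 18, 56377501 to 56378000, next to the one given above, came second, with 7, 29, 129 and 20 reads in Tet2 CKO replicates 1 to 4 and 9, 16 and 15 reads in WT replicates 1 to 3.

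WT replicate 3 carried 7 members, and all 7 lay within 41 kb of chromosome 10, between 20679501 and 20720500. The bin at 20679501 to 20680000 held 82, 16, 2 and 37 reads in Tet2 CKO replicates 1 to 4 and 14, 10 and 286 reads in WT replicates 1 to 3. The bin at 20685001 to 20685500 held 40, 0, 0 and 24 reads in Tet2 CKO replicates 1 to 4 and 4, 2 and 124 reads in WT replicates 1 to 3. The bin at 20699001 to 20699500 held 100, 2, 4 and 14 reads in Tet2 CKO replicates 1 to 4 and 4, 4 and 170 reads in WT replicates 1 to 3. In each of these 3, WT replicate 3 was far above the other WT libraries, with Tet2 CKO replicate 1 next.

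Summed over the 7 bins there were 362, 22, 14 and 135 reads in Tet2 CKO replicates 1 to 4 and 38, 41 and 998 reads in WT replicates 1 to 3. That was 20.4, 1.39, 0.820 and 6.84 times the autosomal mean per bin in Tet2 CKO replicates 1 to 4 and 0.929, 2.38 and 48.8 times in WT replicates 1 to 3. The other 75 bins of the same stretch were at 1.55, 1.40, 1.25 and 1.52 times in Tet2 CKO replicates 1 to 4 and 1.40, 1.63 and 3.02 times in WT replicates 1 to 3. WT replicate 3 was thus raised between the 7 bins as well, where further bins held up to 86 reads, and 2 of the 7 touched each other. Tet2 CKO replicates 1 and 4 were raised in the same 7 bins. The groups overlapped in all 7. Whether the reads of these bins come from 5hmC-enriched genomic DNA was not tested. The stretch was singled out after its values were seen, and it is given without a gene name because no annotation of the build mm9 was used here.

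**Figure D5:**
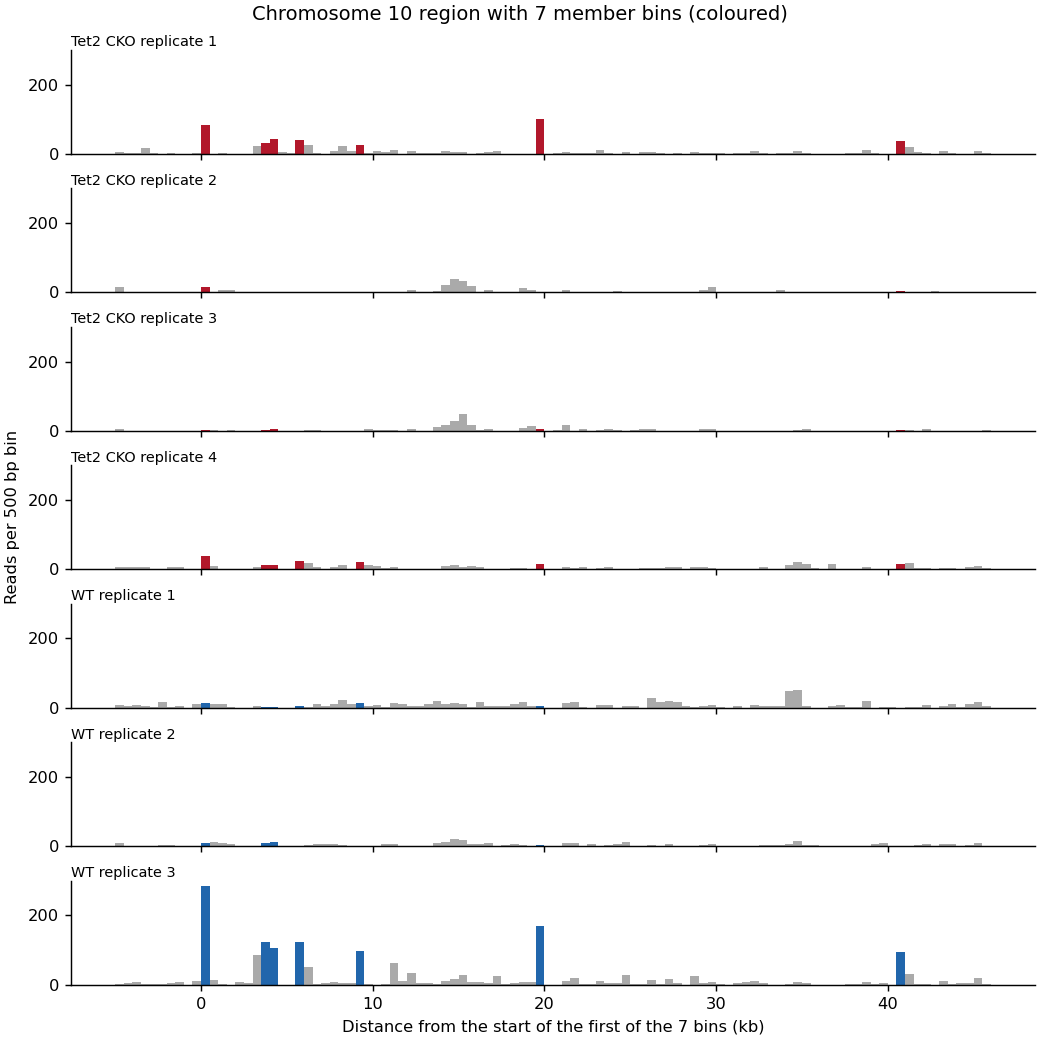
Reads per 500 bp bin in each library along the stretch of chromosome 10 with the 7 members carried by WT replicate 3, against the distance in kb from the first of them. Coloured bars (red Tet2 CKO, blue WT) are the 7 members and grey bars all other bins; WT replicate 3 reaches 286 reads, and Tet2 CKO replicate 1 reaches 100.

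The bounds of the rule cut through a continuous range. At the lower bound 431 members had a mean of exactly 20 reads, and 474 autosomal bins at 19.9 fell just outside. The member at chromosome 1, 24896001 to 24896500, held 20, 33, 34 and 16 reads in Tet2 CKO replicates 1 to 4 and 9, 14 and 14 reads in WT replicates 1 to 3. The excluded bin at chromosome 1, 14109501 to 14110000, held 14, 36, 44 and 5 reads in Tet2 CKO replicates 1 to 4 and 8, 14 and 18 reads in WT replicates 1 to 3. At the upper bound the last member, at chromosome 11, 3072501 to 3073000, had a mean of 99.7 reads, and the first excluded bin, at chromosome 11, 3040501 to 3041000, had 100.1.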

How the data were processed

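The authors deposited raw read counts per consecutive 500 bp bin for 4 Tet2 CKO and 3 WT libraries. The submitters' processing notes name the tools Bowtie2, HOMER and DESeq2, and mm9 as the build. Versions, roles and the treatment of duplicate and multiply mapping reads are not given in the sources used here. Bins were chosen by mean raw count. The members and the measures were chosen with earlier results of these data known.

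Library sizes were reads in autosomal bins with a mean of at most 100. Bins with a mean of at least 10 entered edgeR 4.0.16 in R 4.3.3 (quasi-likelihood test on genotype, two-sided, normalization factors of 1, Benjamini-Hochberg over all tested bins), after the fit was checked on simulated data. The simulated spread was set in advance and not estimated from these libraries, so that check does not show the power of the fit here. The SE came from the F statistic. DESeq2 1.42.0 was an alternative. Descriptions used Python 3.11.15 with pandas 2.3.3 and numpy 2.4.6. Regions were named as the 4 members with the smallest p in each direction, the 3 highest by mean CPM, the 3 most even, the 2 with the largest share in each of 3 libraries, the 2 longest runs, the 3 fullest windows, and examples from those next to each bound.

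Replicate numbers 1 to 3 occur in both groups' labels. Deviations from the group means over 226387 bins correlated at 0.580, 0.246 and 0.301 within numbers 1, 2 and 3, above the criterion of 0.1 for treating them as pairs. Such deviations carry the opposition of Tet2 CKO replicates 2 and 3 to WT replicate 1, so the criterion cannot tell pairs from it. Over members and without centring, Tet2 CKO replicate 1 had r = 0.219 with WT replicate 1 and 0.340 with WT replicate 3. Within numbers 2 and 3 it was -0.0186 and 0.0362. Number 1 stood apart, since its libraries correlated negatively with those of numbers 2 and 3 in the other group, whereas numbers 2 and 3 were interchangeable, with 0.306 between Tet2 CKO replicate 2 and WT replicate 3 and 0.229 between Tet2 CKO replicate 3 and WT replicate 2. No sequence or gene name is given, because no mm9 genome or annotation was used here. Alternatives covered scaling, count filters, bounds, dispersion, tool, threshold, the replicate block and libraries left out. Sorting members by their highest library, the fit of 4 libraries, the distance to bins above 100 and the chromosome 10 stretch were chosen after values were seen.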

Additional observations from a re-analysis of the deposited data

Results flagged for a closer look

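In the bin at chromosome 18, 56378001 to 56378500, Tet2 CKO replicate 3 lay far from the other libraries of its group. It held 152 reads, against 8, 14 and 15 in Tet2 CKO replicates 1, 2 and 4 and 6, 2 and 6 in WT replicates 1 to 3. Its gap to the nearest Tet2 CKO library was 0.948 of the group's range, above Dixon's critical value for 4 values. The bin was named for its small p and for its share in this library, so the distance follows from that choice and is a description. Chance flags about 1 in 20 groups.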

How the results depend on the processing

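The count of members past the threshold was 0 with autosomal totals and in every edgeR alternative except the replicate block, which called 4063, while DESeq2 called 13. Leaving out each library in turn gave 0 to 0 calls. The median log2 fold change of 0.89 became -0.044 with TMM factors, -0.016 with DESeq2's size factors and 0.25 with all reads as library size. It was 0.031 without Tet2 CKO replicates 2 and 3, -0.079 without WT replicate 1 as well, 0.11 in bins chosen over the other 4 libraries, and 0.62 to 1.09 with each library left out. The difference in the share of the autosomal total, 0.885 percentage points higher in Tet2 CKO, ran from 0.563 to 1.20 with each library left out, averaged 1.20 within the pairs of the replicate block, and was -0.107 without all 3 libraries, 1.43 by mean CPM, 0.299 from 30 reads up and 0.217 over the other 4 libraries. The difference in the level beside members, 0.843, ran from 0.532 to 1.14 with each library left out. It was -0.0340 without the 3 libraries, 0.0285 at 2.5 to 10 kb, 1.46 by mean CPM and 1.58 from 30 reads up. Beside bins chosen over the other 4 libraries, again read in all 7, it was 0.230. Touching members made up 34.2% by mean CPM, 36.3% from 30 reads up, 28.1% up to 50 reads, 26.4% over the other 4 libraries, 29.3% away from bins above 100 and 36.8% with gaps of 2 bins. Members carried by 1 library numbered 54, 13 and 15 by mean CPM, from 30 reads up and over the other 4 libraries, and 1320 by raw reads. Chromosome 8 had 5.88, 1.56, 3.52 and 5.93 members per Mb by mean CPM, from 30 reads up, over the other 4 libraries and away from bins above 100. These sets held 12041, 2042, 5116 and 11690 bins in that order. Their densities, their counts of members carried by 1 library and their differences in share therefore also follow the size of the set. The causes were not tested. The bins chosen over the other 4 libraries, those away from bins above 100 and the fit without all 3 libraries were added after seeing the data. For the 8 members named by p, 12 alternative values passed the threshold, 128 did not, 4 from DESeq2 had no adjusted p, and 0 of those with one changed direction. The alternatives reused the libraries that picked these members, so a kept direction is no separate support.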

Other observations

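Members highest in Tet2 CKO replicate 2 or 3 made up 61.7% of members with a mean of 20 to under 25 reads, 66.4% at 25 to under 30, 73.4% at 30 to under 40 and 77.2% at 40 to under 50. Above that the share was 68.3% at 50 to under 75 reads and 70.0% at 75 or more. At 40 to under 50 reads the median member held 2.23, 6.37, 6.38 and 2.15 CPM in Tet2 CKO replicates 1 to 4 and 1.14, 2.46 and 2.42 CPM in WT replicates 1 to 3. Those strata were cut from the values that chose the members, so they are descriptions.

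Even read counts were in excess within members too. Among nonzero counts, 67.9%, 60.3%, 58.8% and 67.3% were even in Tet2 CKO replicates 1 to 4 and 59.0%, 69.7% and 65.6% in WT replicates 1 to 3. Over all autosomal bins of at most 100 reads the shares ran from 71.4% to 83.5%. In WT replicate 3, for example, 960696 bins held 2 reads and 144231 held 1 read. The cause was not tested.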
